A study of Trichoderma reesei with 15 samples.

Results

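Genes with neighbouring identifiers that shifted in the same direction when pp2A was missing are described here, in mycelium of the cellulase-producing fungus Trichoderma reesei. The members were chosen by measured values, namely d, the mean log2(CPM + 1) of the 4 Δpp2A libraries minus that of the 4 parent libraries, where CPM is a gene's count scaled to a library total of 1000000. A run consisted of at least 3 genes with the same identifier letter and consecutive numbers, all with d of at least 1 or all with d of at most -1. By this rule 167 of the 10876 genes with such an identifier were members, in 48 runs. There were 36 runs with d of at least 1, called rising runs as a name and not as a test result, which held 122 genes. The 12 runs with d of at most -1, called falling runs, held 45 genes. Of all genes, 8.2% had d of at least 1 and 4.84% had d of at most -1.

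All strains derived from QM6a and lacked mus53, which acts in the joining of broken DNA ends and is often deleted so that a gene can be replaced at its own site, and the parent QM6aΔmus53 stood as the control. The 5 groups were this parent in the experiments tagged DD1 (2 libraries) and DD3 (2 libraries), QM6aΔmus53Δpp2A in DD1 (4 libraries), QM6aΔmus53Δpph5 in DD1 (3 libraries) and the deletion titled pph5-2 in DD3 (4 libraries). Every culture had grown for 96 h at 28 °C with cellulose as its carbon source in constant darkness. What the tags stand for, whether replicates were separate cultures and how many transformants each strain represents is not given by the labels, so any p-value measures only the spread between these samples. Titles decided the group where labels differed: Δpp2A replicate 1 carries the type WT, and those titled pph5-2 name pph5 in their source field.

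PP2A and PP5 are families of serine/threonine phosphatases, enzymes that take phosphate groups off proteins and so reverse the action of kinases. In filamentous fungi, genes that work in one pathway often lie side by side on a chromosome. Clusters for secondary metabolites, in which synthases, tailoring enzymes, transporters and regulators stand together, are the best known case, and genes of enzymes that break down plant cell walls are also partly clustered in Trichoderma reesei. Lengths are as the deposited table lists them, and 94.7% of them are multiples of 3. The deposited table pairs its identifiers with no gene name, and 0 of the 167 members matched the reference gene table, so no name, product or sequence is given for any of them. An identifier consists of a letter from A to G, a number that runs without gaps from 1 in each letter, and W or C. That consecutive numbers mean neighbours on a chromosome is the premise of the rule and was not tested.

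RNA was sequenced after depletion of ribosomal RNA with a stranded kit, and library totals lay between 6026511 and 13572121 counts. No identifier is named as a deleted gene, and the 3 candidates were picked for their counts. TrG1101W reached 4 counts in 1 Δpp2A library and 0 in the other 3, against 247 to 342 in the parents, and was 86 numbers away from the nearest member. TrE1020W had 0 counts in the 3 Δpph5 libraries and TrE0027W had 0 in the 4 Δpph5-2 libraries. They were 180 and 13 numbers away from the nearest member. In bulk samples like these, fewer hyphae that use a gene and less transcript per hypha cannot be told apart.

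Most runs were short. Of the 36 rising runs 28 had 3 genes, 3 had 4, 4 had 5 and 1 had 6 genes. Of the 12 falling runs 6 had 3 genes, 5 had 4 and 1 had 7 genes. The members were 13.7% of all genes with d of at least 1 and 8.56% of those with d of at most -1. The median d was 1.80 in rising runs, with a highest value of 7.65, and -1.96 in falling runs, with a lowest value of -4.62. Over all genes it was 0.16. With scaling by TMM (trimmed mean of M values) that median was 0, and d was lower in every member. This scaling gave 58 genes in rising and 69 in falling runs, so 45.7% of the members were in rising runs against 73.1% with CPM. All 45 members of falling runs were also found with TMM, but only 58 of the 122 members of rising runs, and no member's d changed sign.

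**Figure D1:**
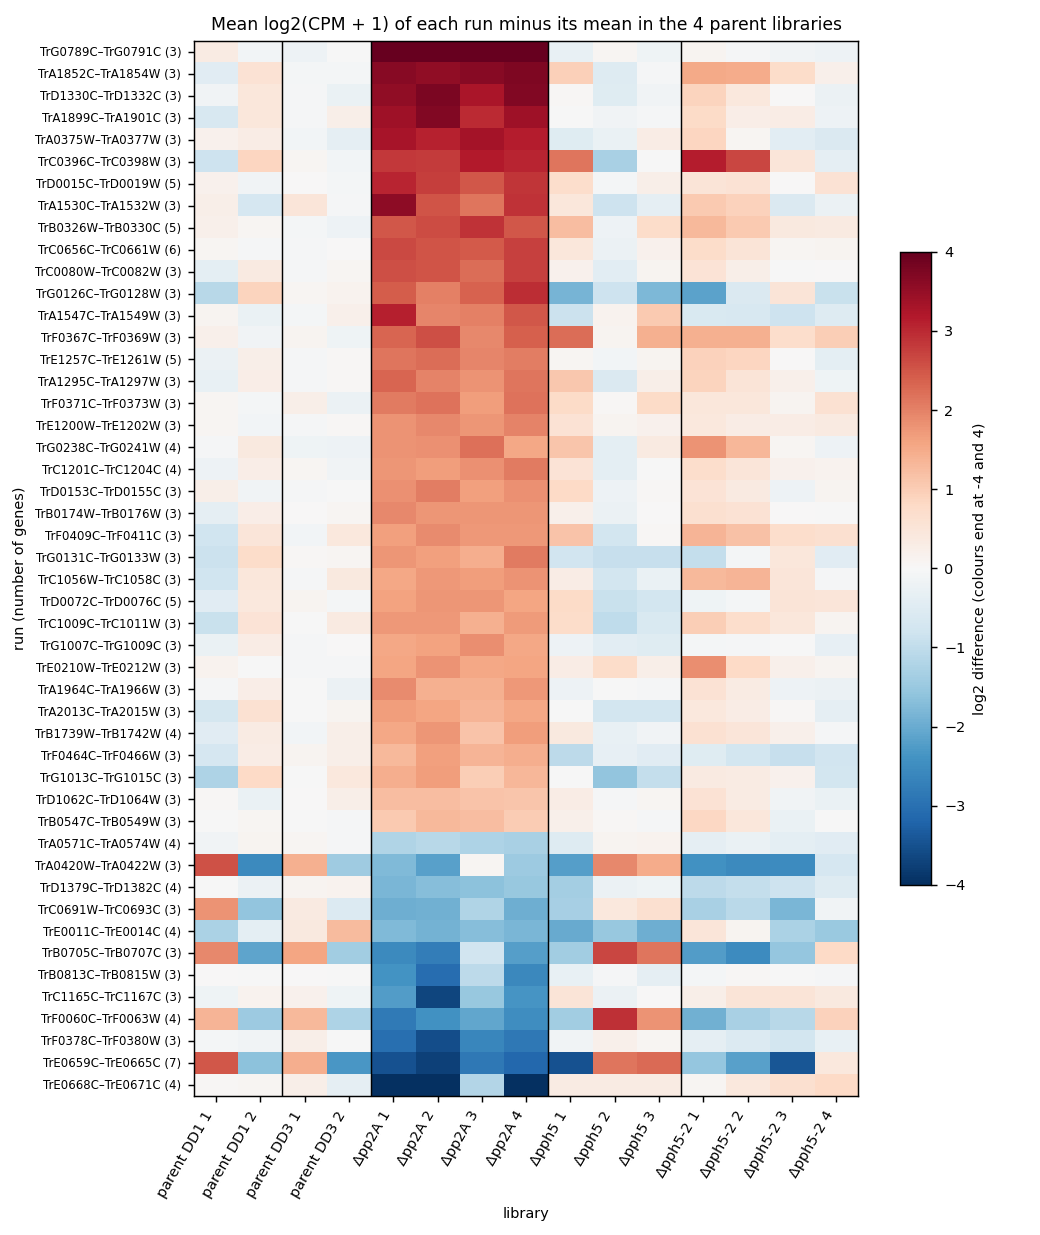
Each row is 1 of the 48 runs with its number of genes, each column 1 of the 15 libraries, and the colour is the mean log2(CPM + 1) of the run's genes minus its mean in the 4 parent libraries. The 4 Δpp2A columns are red in the 36 rising rows and blue or pale in the 12 falling rows. The rule sets the direction of their mean and not of each column. Several falling rows also differ between replicates 1 and 2 of both parents.

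In 118 of the 122 members of rising runs all 4 Δpp2A libraries lay above all 4 parent libraries, which was so for 30.6% of all genes. In 33 of the 45 members of falling runs all 4 lay below all parents, against 6.62% of all genes. The rule used these 8 libraries, so nothing is read from either count. The 7 Δpph5 and Δpph5-2 libraries were not used by the rule. All 4 Δpp2A libraries lay above all of these 7 in 93 of 122 rising members (19.3% of all genes), and below them in 22 of 45 falling members (4.51% of all genes). This too is a description, because the Δpp2A values are those that chose the members.

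Several members were close to the limit. TrD1064W (d 1.0) and TrB0174W (d 1.01) were the rising members with the smallest d, and TrA0420W (d -1.02) and TrB0706W (d -1.05) the falling ones. In all, 32 of the 167 members had a size of d under 1.2. TrD1064W was at 1.29 and 1.92 CPM in the DD1 parents, 0.719 and 3.05 CPM in the DD3 parents and 4.85, 4.20, 5.02 and 3.12 CPM in Δpp2A. TrB0174W was at 2.04 and 4.44 CPM in the DD1 parents, 2.16 and 3.71 CPM in the DD3 parents and 7.90, 7.50, 7.63 and 5.15 CPM in Δpp2A. For both of these genes the ranges were apart, but the highest parent and the lowest Δpp2A library were near each other. Outside the runs, the genes next to the 4 longest falling runs had d between -0.71 and 2.23, and those next to the 4 longest rising runs had d between -0.85 and 0.88. TrE0658C and TrE0666W, on either side of the longest run, had d of 0.10 and -0.04 and were almost silent in parents and Δpp2A. TrE0010C, next to the falling run TrE0011C–TrE0014C, had d of 2.23, on the other side of the limit.

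The longest run was TrE0659C–TrE0665C, 7 falling genes of which the first 2 had long coding lengths (7668 and 7902 bases) and the others between 1371 and 1995 bases. TrE0661W had the largest change of all falling members (d -4.62). It was at 524 and 9.99 CPM in the DD1 parents and 259 and 4.10 CPM in the DD3 parents, and at 0.359, 0.254, 2.14 and 2.88 CPM in Δpp2A. TrE0662C, the highest gene of the run per kilobase (1899.8 CPM per kb in the parents), was at 6099 and 1728 CPM in the DD1 parents, 3054 and 1314 CPM in the DD3 parents and 450.1, 304, 197 and 269 CPM in Δpp2A. The smallest change was that of TrE0663W (d -1.73), at 1173 and 266 CPM in the DD1 parents, 639 and 202 CPM in the DD3 parents and 181, 136, 112 and 120.0 CPM in Δpp2A. In all 7 genes the replicate 1 parents were above the replicate 2 parents. All 4 Δpp2A libraries lay below all parents in 6 of them, and in TrE0664C they overlapped with the replicate 2 parents.

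Libraries of the other deletions also differed within their group, but not by the same replicate number. In Δpph5 replicate 1 was the low library, and Δpph5-2 differed less in TrE0662C than in TrE0661W. Δpph5 libraries were at 0.102, 434 and 485 CPM of TrE0661W and 908, 3922 and 4845 CPM of TrE0662C. Δpph5-2 libraries were at 13.6, 7.29, 0.667 and 111 CPM and 1885, 1296, 759 and 1574 CPM of these genes. Δpph5 replicate 1 was thus as low as Δpp2A in TrE0661W, and Δpph5 replicates 2 and 3 were as high as the replicate 1 parents. Without the replicate 1 library of both parents, 5 of the 7 genes still had d of at most -1, and TrE0664C turned to 0.28. Adjacent genes of the run had correlations of 0.88 to 1.0 over the 7 Δpph5 and Δpph5-2 libraries.

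Only 2 numbers further on came TrE0668C–TrE0671C, 4 falling genes that all end in C. Here the replicate 1 parents were not far above the replicate 2 parents, except in TrE0668C. TrE0671C was at 1458 and 1923 CPM in the DD1 parents and 1792 and 1495 CPM in the DD3 parents, and at 51.1, 25.4, 642 and 61.1 CPM in Δpp2A. TrE0670C (d -4.52, the largest of the run) was at 588 and 1529 CPM, 1004 and 959 CPM and 20.5, 10.3, 413 and 30.1 CPM in the same groups. All 4 Δpp2A libraries were below all parents in both genes, but replicate 3 was far above the other Δpp2A replicates. Without that replicate d was -5.62 for TrE0670C and -5.23 for TrE0671C. Δpph5 libraries were at 2475, 1659 and 1583 CPM and Δpph5-2 libraries at 2708, 3419, 3075 and 2977 CPM of TrE0671C, within or above the range of the parents. TrE0668C, with the smallest change (d -1.52), was a low gene at 7.09 and 0.606 CPM in the DD1 parents, 3.49 and 0.857 CPM in the DD3 parents and 0.269, 0, 0.279 and 0 CPM in Δpp2A. Its parents split by replicate like those of TrE0659C–TrE0665C and unlike the other 3 genes of its own run. TrE0666W and TrE0667W, between the runs, were nearly silent, at 0.0257 and 0.445 CPM on average in the parents. Beyond TrE0671C the direction turned: TrE0673W, which is no member and is named after its value was seen, had d of 4.33.

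**Figure D2:**
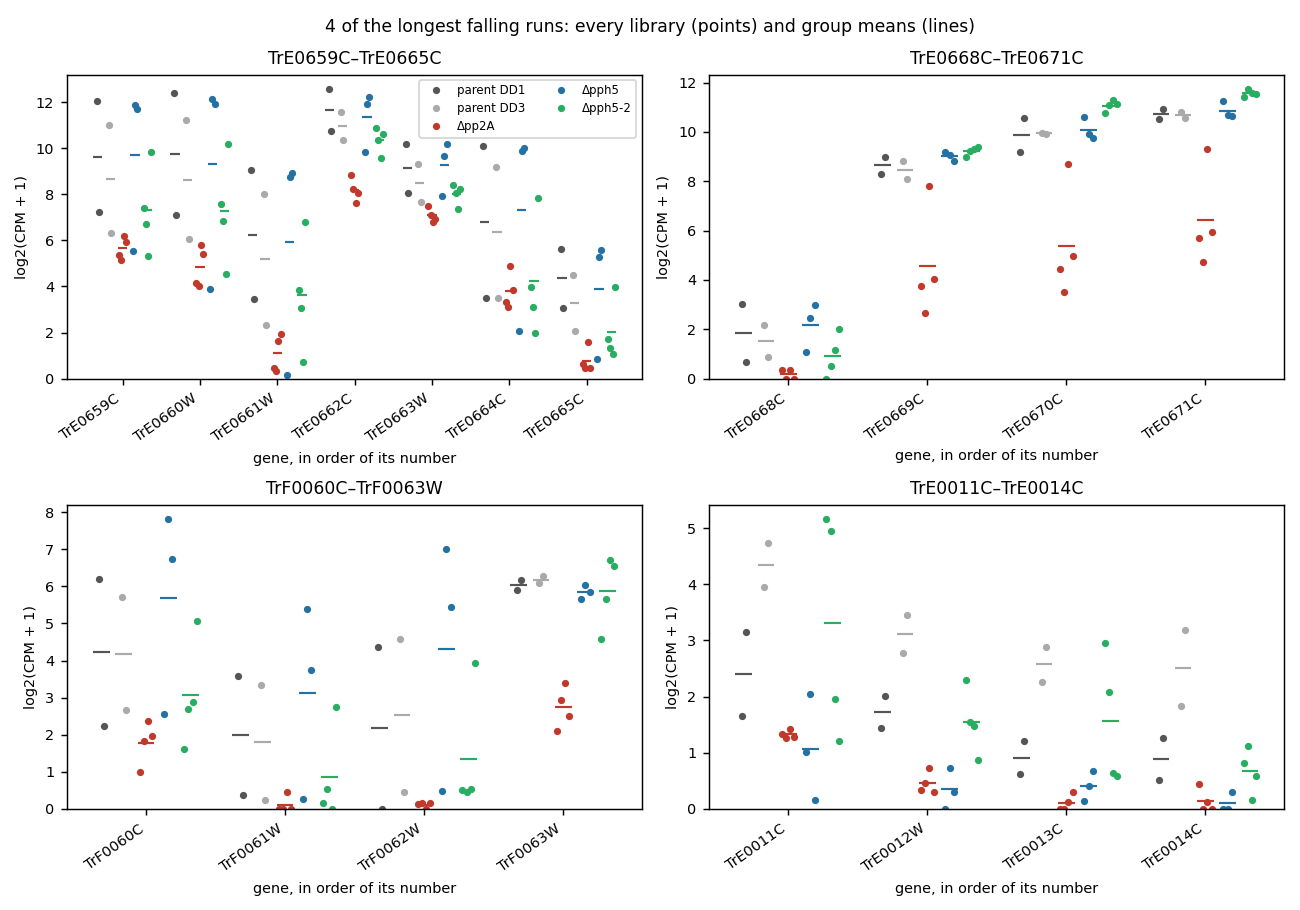
Points give log2(CPM + 1) of every library and short lines the group means for the genes of 4 falling runs, in order of their numbers. In TrE0659C–TrE0665C the parent and Δpph5 points split into high and low libraries. In TrE0669C to TrE0671C they lie closer together and above all Δpp2A points, of which replicate 3 is the highest.

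TrC1165C–TrC1167C held the most abundant member of all runs. TrC1166C (1629 bases) reached 8270.2 CPM per kb in the parents. It was at 12650.4 and 14864 CPM in the DD1 parents and 14012 and 12362 CPM in the DD3 parents, and at 1175, 219, 3778 and 1019 CPM in Δpp2A (d -3.75). The parent mean of 13472 ± 1174 CPM (SD, n = 4) was 8.70-fold the Δpp2A mean of 1548 ± 1545 CPM (SD, n = 4). Neither Δpph5 (17665, 12565 and 13618 CPM) nor Δpph5-2 (13028, 15379, 17746 and 16744 CPM) reached below the lowest parent. Its neighbours TrC1165C and TrC1167C had 0.0775% and 0.0528% of its level per kb in the parents. TrC1167C was at 4.51 and 4.85 CPM, 4.73 and 3.05 CPM and 0.449, 0, 0.651 and 0.719 CPM in the DD1 parents, DD3 parents and Δpp2A. Whether reads of the abundant gene were counted for its neighbours was not tested. In all, 4 of the 167 members had under 1% of the level per kb of a member next to them, the others being TrB0706W and TrB1740C.

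A like pattern was found in TrB0813C–TrB0815W. TrB0813C was at 586 and 657 CPM in the DD1 parents, 593 and 525 CPM in the DD3 parents and 81.0, 29.9, 266 and 65.7 CPM in Δpp2A (d -2.85). Its parent libraries differed little, and Δpp2A replicate 3 was again the highest of its group. TrB0815W was at 28.8 and 23.6 CPM, 27.9 and 34.6 CPM and 3.59, 1.91, 14.1 and 3.36 CPM in these groups. For TrB0814W the values were 72.8 and 73.8 CPM, 75.7 and 65.7 CPM and 22.6, 23.7, 34.7 and 19.9 CPM. All 3 genes had Δpp2A below every parent and every Δpph5 and Δpph5-2 library, with replicate 3 still under the others, except that in TrB0815W it was only just so, at 14.1 CPM against 14.6 CPM in Δpph5 replicate 1. The genes on either side, TrB0812W and TrB0816W, had d of -0.71 and -0.99, just outside the limit.

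TrF0378C–TrF0380W was low in all 4 Δpp2A libraries alike. TrF0378C was at 34.7 and 54.2 CPM in the DD1 parents, 48.2 and 61.9 CPM in the DD3 parents and 2.16, 0.763, 3.72 and 2.40 CPM in Δpp2A (d -4.02). Δpph5 was at 54.5, 31.4 and 33.3 CPM and Δpph5-2 at 53.3, 54.9, 32.0 and 39.8 CPM, so the Δpp2A libraries stood apart from all 11 others. TrF0379W and TrF0380W, which have short coding lengths of 360 and 72 bases, had d of -2.72 and -2.28.

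TrA0571C–TrA0574W and TrD1379C–TrD1382C changed less. TrA0574W was at 61.3 and 64.5 CPM in the DD1 parents, 65.5 and 57.1 CPM in the DD3 parents and 26.5, 26.3, 19.7 and 18.6 CPM in Δpp2A. All 4 genes of TrA0571C–TrA0574W had d between -1.42 and -1.05, with Δpp2A below all 11 other libraries in each. In TrD1379C–TrD1382C, with d between -2.10 and -1.25, Δpp2A was below all parents in all 4 genes and below all 7 other deletion libraries in 3. The exception was TrD1380C, a low gene at 4.19 and 5.05 CPM in the DD1 parents, 0.629, 1.40, 0.651 and 1.92 CPM in Δpp2A and 0.813, 3.48 and 4.71 CPM in Δpph5.

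TrB0705C–TrB0707C, TrA0420W–TrA0422W and the first 3 genes of TrF0060C–TrF0063W also had the replicate 1 parents far above the replicate 2 parents. TrB0705C, the highest gene of TrB0705C–TrB0707C per kilobase (1632 CPM per kb), was at 6196 and 114 CPM in the DD1 parents and 4563 and 369 CPM in the DD3 parents. It was at 63.9, 38.8, 945 and 70.3 CPM in Δpp2A, 426, 8216 and 5881 CPM in Δpph5 and 73.3, 68.4, 344 and 2795 CPM in Δpph5-2. Δpp2A replicate 3 was higher than both replicate 2 parents, so the groups overlapped. Without the replicate 1 parents d was -0.85.

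TrF0060C–TrF0063W was mixed. TrF0063W, with the largest change (d -3.37), was at 59.1 and 70.8 CPM in the DD1 parents, 67.2 and 76.4 CPM in the DD3 parents and 3.32, 6.61, 9.58 and 4.67 CPM in Δpp2A. Its parents lay close together. TrF0061W, with the smallest change (d -1.77), was at 11.0 and 0.303 CPM, 9.14 and 0.190 CPM and 0, 0, 0.372 and 0 CPM in these groups, and its parents were split. The same was seen in TrF0060C and TrF0062W. Δpph5 libraries were at 0.203, 40.7 and 12.4 CPM of TrF0061W and 49.8, 65.0 and 56.1 CPM of TrF0063W, so the wide split between replicates was also present in Δpph5 for the first 3 genes and not for the last.

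TrA0420W was at 68.2 and 0.303 CPM in the DD1 parents, 27.4 and 2.29 CPM in the DD3 parents and 2.51, 1.02, 12.7 and 4.07 CPM in Δpp2A, inside the range of the parents. Without the replicate 1 parents its d was 1.19, and all 3 genes of its run changed sign. TrB0706W was at 7.95 and 0.505 CPM, 6.78 and 0.952 CPM and 0.359, 0.636, 1.58 and 0.959 CPM in the same groups, and its d was 0.10 without these libraries. TrC0691W was at 318 and 40.2 CPM in the DD1 parents, 111 and 110.1 CPM in the DD3 parents and 19.3, 16.2, 38.1 and 20.6 CPM in Δpp2A, below all parents. Its DD1 parents split and its DD3 parents did not. In TrC0692W (d -1.80) and TrC0693C (d -1.18) Δpp2A overlapped with the parents.

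Over all falling members, 21 of 45 were at least 1 higher on the log2 scale in the replicate 1 than in the replicate 2 parents, and 6.56% of all genes were. In the other direction it was 2 of 45 falling members and 3.02% of all genes. Of the 122 rising members, 16 were at least 1 lower and 6 at least 1 higher in the replicate 1 parents, against these 3.02% and 6.56%. The parent libraries are those of the rule, so nothing is read from these counts. Without the replicate 1 parents 32 of the 45 members, and all members of 6 of the 12 runs, kept d of at most -1. Without Δpp2A replicate 3 all 45 kept it. Among rising members, 98 of 122 kept d of at least 1 without the replicate 1 parents, as did all members of 20 of the 36 runs. It was 116 of 122 without Δpp2A replicate 3.

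In all 4 genes of TrE0011C–TrE0014C the DD3 parents were above the DD1 parents. TrE0011C (6255 bases, d -2.05) was at 2.15 and 7.87 CPM in the DD1 parents, 14.4 and 25.7 CPM in the DD3 parents and 1.53, 1.40, 1.67 and 1.44 CPM in Δpp2A. It was at 1.02, 3.15 and 0.118 CPM in Δpph5 and 34.6, 29.8, 2.89 and 1.32 CPM in Δpph5-2, so Δpph5 replicates 1 and 3 were as low as Δpp2A and Δpph5-2 replicates 1 and 2 were above every parent. TrE0014C (d -1.56) was at 0.430 and 1.41 CPM, 2.57 and 8.10 CPM and 0.359, 0, 0.0930 and 0 CPM in the DD1 parents, DD3 parents and Δpp2A. Against the DD1 parents alone, which share the tag of Δpp2A, d was -1.08 in TrE0011C and -0.75 in TrE0014C. TrE0013C (-0.81) and TrE0014C then no longer reached the limit, so the 4 genes formed no run.

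The longest rising run was TrC0656C–TrC0661W with 6 genes. TrC0660W (4698 bases) changed most (d 4.54), from 7.41 and 10.6 CPM in the DD1 parents and 7.71 and 5.91 CPM in the DD3 parents to 252, 206, 139 and 232 CPM in Δpp2A. The Δpp2A mean of 207 ± 49.3 CPM (SD, n = 4) was 26.2-fold the parent mean of 7.91 ± 1.96 CPM (SD, n = 4). Δpph5 libraries were at 18.3, 5.64 and 7.18 CPM and Δpph5-2 libraries at 16.8, 10.7, 13.6 and 7.91 CPM, well under all Δpp2A libraries. TrC0659C in the middle of the run changed least (d 1.10): it was at 17.0 and 34.2 CPM in the DD1 parents, 25.8 and 46.9 CPM in the DD3 parents and 76.3, 44.8, 80.6 and 58.0 CPM in Δpp2A, and the ranges overlapped. With TMM its d was 0.83, under the limit, which splits the run. TrC0657C, TrC0658W and TrC0661W were at most 1.29 CPM in every parent.

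TrD0015C–TrD0019W was nearly silent outside Δpp2A. TrD0016C was at 1.61 and 0.908 CPM in the DD1 parents, 2.36 and 1.05 CPM in the DD3 parents and 161, 175, 151 and 154 CPM in Δpp2A (d 6.06). Its Δpp2A libraries were close together, and Δpph5 (0.914, 0.996 and 0.588 CPM) and Δpph5-2 (4.99, 4.79, 0.445 and 1.73 CPM) were as low as the parents or nearly so. TrD0017C, next to it, was at 28.9, 20.1, 16.7 and 26.7 CPM in Δpp2A and at most 3.45 CPM elsewhere. The run tailed off to TrD0019W (d 1.01), which was at 2.26 and 0 CPM, 1.03 and 0.667 CPM and 3.86, 2.54, 1.49 and 3.24 CPM in the DD1 parents, DD3 parents and Δpp2A, with overlap.

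In TrB0326W–TrB0330C all 5 genes had Δpp2A above all parents. TrB0330C (d 3.92) was at 1.07 and 1.51 CPM in the DD1 parents, 1.54 and 1.33 CPM in the DD3 parents and 31.6, 31.8, 46.2 and 30.8 CPM in Δpp2A. Δpph5 (7.32, 0.996 and 8.94 CPM) and Δpph5-2 (9.34, 7.07, 3.45 and 2.14 CPM) had libraries above every parent, but none reached Δpp2A. TrB0326W (d 1.35) was at 16.2 and 12.8 CPM, 10.4 and 11.0 CPM and 29.8, 37.8, 31.4 and 34.5 CPM in the first 3 groups, and Δpph5 replicate 1 reached 30.4 CPM, within the Δpp2A range.

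TrE1257C–TrE1261W was high at both ends. TrE1257C (d 3.44) was at 59.4 and 59.7 CPM in the DD1 parents, 49.0 and 46.0 CPM in the DD3 parents and 588, 671, 447 and 664 CPM in Δpp2A. Δpph5-2 libraries were at 399, 304, 85.9 and 78.6 CPM, so replicates 1 and 2 lay between parents and Δpp2A. TrE1261W (d 3.20) was at 201, 201, 167 and 190.1 CPM in Δpp2A against 36.7 and 13.9 CPM in the DD1 parents and 22.9 and 12.8 CPM in the DD3 parents. Between them lay low or less changed genes, such as TrE1259W (d 1.19) at 0.752 and 4.74 CPM in the DD1 parents, 2.05 and 4.0 CPM in the DD3 parents and 8.44, 8.01, 6.70 and 5.27 CPM in Δpp2A.

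**Figure D3:**
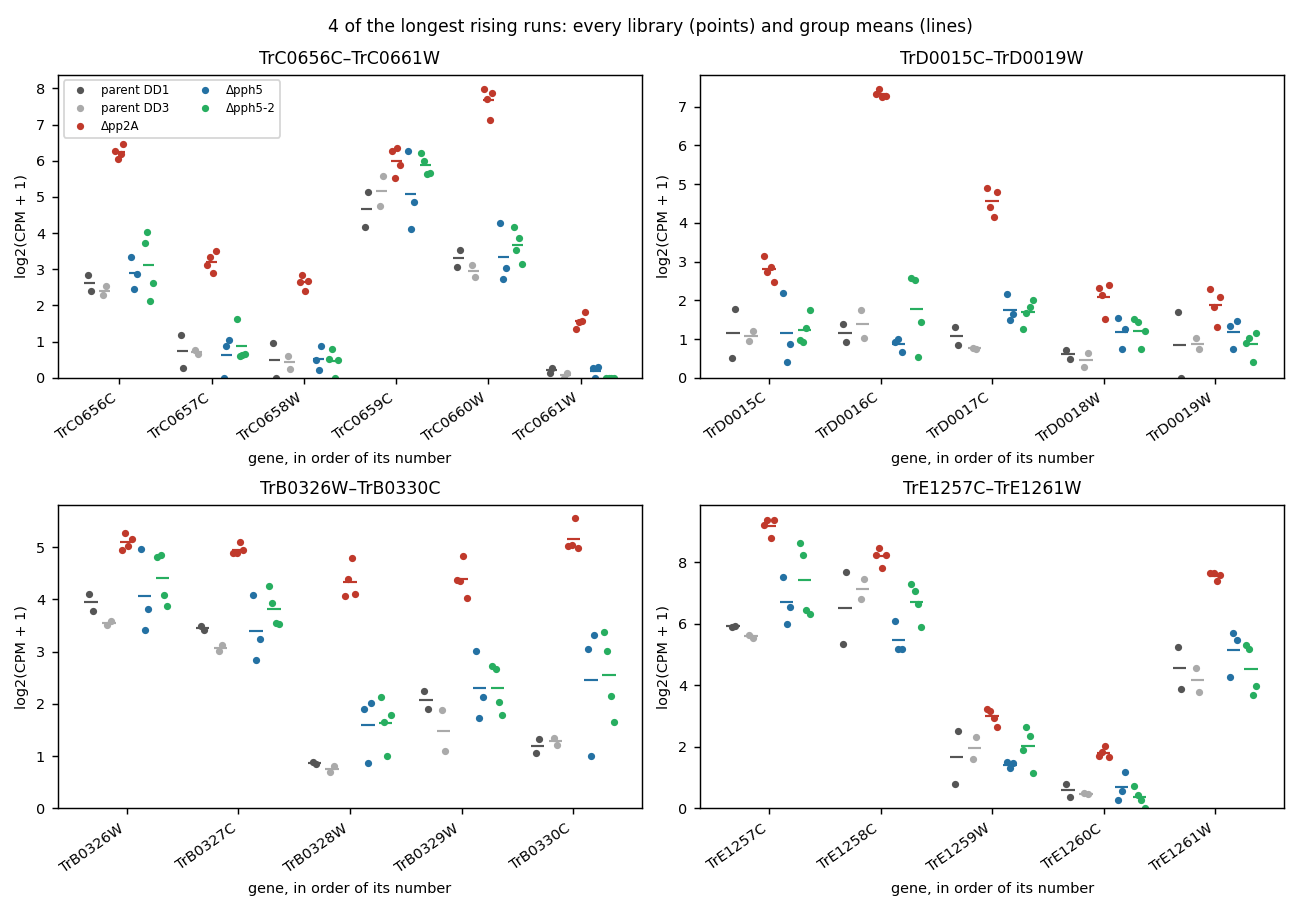
Points give log2(CPM + 1) of every library and short lines the group means for the genes of 4 rising runs, in order of their numbers. Within a run the distance between the red Δpp2A points and the parents differs widely from gene to gene, from TrC0660W (d 4.54) to TrC0659C (d 1.10) in the run with 6 genes.

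The largest d of all members were those of TrG0789C and TrG0790C in TrG0789C–TrG0791C, a run named after the values were seen. TrG0789C (3792 bases) was at 1.18 and 0.707 CPM in the DD1 parents, 0.822 and 1.05 CPM in the DD3 parents and 330.1, 449, 319.9 and 472 CPM in Δpp2A (d 7.65). TrG0790C was at 0.215 and 0.908 CPM, 0 and 1.14 CPM and 99.2, 133, 96.3 and 144 CPM in these groups (d 6.30). Both were at most 1.52 CPM in every Δpph5 and Δpph5-2 library. TrG0791C (d 2.92) was less silent, at 7.30 and 1.62 CPM in the DD1 parents, 3.08 and 1.43 CPM in the DD3 parents and 23.4, 31.2, 25.7 and 33.1 CPM in Δpp2A.

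In 4 further rising runs, also named after the values were seen, at least 1 gene had d over 4.8. TrA1853W was at 10.4 and 24.7 CPM in the DD1 parents, 15.4 and 16.2 CPM in the DD3 parents and 519, 522, 509 and 531 CPM in Δpp2A (d 4.94), beside TrA1852C (d 4.93). TrA1899C was at 0.322 and 0.808 CPM, 0.719 and 0.857 CPM and 70.1, 82.5, 45.9 and 68.8 CPM in these groups (d 5.32). TrD1331C was at 2.26 and 5.45 CPM in the DD1 parents, 4.42 and 3.43 CPM in the DD3 parents and 161, 181, 127 and 183 CPM in Δpp2A (d 5.10). The ranges were far apart in each of these genes. TrA0376C was at 5.58 and 7.07 CPM, 4.21 and 4.0 CPM and 158, 185, 188 and 164 CPM (d 4.84), and its neighbour TrA0377W was at 149, 151, 167 and 161 CPM in Δpp2A (d 3.63). Each of these 4 runs also held a gene that changed much less, namely TrA1854W (d 1.06), TrA1901C (d 1.03), TrD1330C (d 1.90) and TrA0375W (d 1.18).

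Other rising runs held genes that were expressed in every strain. TrC1009C–TrC1011W had the highest mean level per kilobase among rising runs. TrC1010W (276 bases, 2501 CPM per kb in Δpp2A) was at 71.5 and 316 CPM in the DD1 parents, 209 and 255 CPM in the DD3 parents and 739, 716, 583 and 723 CPM in Δpp2A (d 1.88). TrC1011W, next to it and 2772 bases long, was at 661 and 2591 CPM, 1529.8 and 2266 CPM and 6692, 6479, 5263 and 6151 CPM in these groups. Among the parents both genes were lowest in DD1 replicate 1, and Δpph5 was at 3344, 631 and 920.1 CPM of TrC1011W. TrG0131C was at 304 and 692 CPM in the DD1 parents, 447 and 525 CPM in the DD3 parents and 1113, 1059.9, 940.3 and 1413 CPM in Δpp2A (d 1.25). TrB1741W was at 92.1 and 159.9 CPM, 116 and 173 CPM and 318, 382, 280.3 and 405 CPM in these groups (d 1.38). TrC1057W was at 78.7 and 333 CPM in the DD1 parents, 197 and 297 CPM in the DD3 parents and 419, 467, 454 and 449 CPM in Δpp2A (d 1.17). In all of these genes Δpp2A was above every parent, and in TrC1057W Δpph5-2 replicate 1 reached 440.3 CPM, within the Δpp2A range.

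TrG0126C–TrG0128W and TrG0131C–TrG0133W, with 2 genes between them, were higher in Δpp2A, while the other deletions lay within or below the range of the parents. TrG0126C was at 60.9 and 375 CPM in the DD1 parents, 199.8 and 235 CPM in the DD3 parents and 1148, 868, 949.5 and 1457 CPM in Δpp2A (d 2.57). It was at 50.8, 62.2 and 29.5 CPM in Δpph5 and 42.8, 121, 324 and 121 CPM in Δpph5-2. TrG0128W (5592 bases) was at 25.9 and 92.7 CPM, 54.8 and 48.7 CPM and 376, 265, 401 and 509 CPM in parents and Δpp2A, and at 9.55, 49.4 and 19.1 CPM and 6.19, 28.6, 62.7 and 24.5 CPM in Δpph5 and Δpph5-2. TrG0129W between the runs had d of 0.61, and TrG0122W, 4 numbers before the first run and named after its value was seen, had d of -4.36 with -4.97 in Δpph5-2 against its parent.

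In 4 rising runs, named after the values were seen, libraries of the other deletions reached the Δpp2A level in most genes. TrC0398W was at 88.8, 104, 129 and 102 CPM in Δpp2A, 58.3, 1.99 and 10.9 CPM in Δpph5 and 110.3, 73.7, 10.2 and 5.76 CPM in Δpph5-2, against 3.33 and 23.1 CPM in the DD1 parents and 8.73 and 8.19 CPM in the DD3 parents. TrG0238C was at 585, 582, 732 and 475 CPM in Δpp2A, 333, 89.9 and 167 CPM in Δpph5 and 583, 399.7, 116 and 94.4 CPM in Δpph5-2. In both genes Δpph5-2 replicates 1 and 2 and Δpph5 replicate 1 were the high libraries outside Δpp2A. TrF0368C was at 324, 378, 257 and 363 CPM in Δpp2A and 339, 51.3 and 133 CPM in Δpph5, with replicate 1 of Δpph5 in the Δpp2A range. TrE0211W was at 3.59, 3.43, 3.53 and 3.12 CPM in Δpp2A, 4.13, 1.18, 0.667 and 0.576 CPM in Δpph5-2 and at most 0.505 CPM in the parents. TrB0547C–TrB0549W was a further such run: all 4 Δpp2A libraries lay above those of the other deletions in only 1 of its 3 genes.

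TrF0367C–TrF0369W, TrF0371C–TrF0373W and TrF0378C–TrF0380W lay within 14 numbers, the first 2 rising and the last falling. The gene between the first 2, TrF0370W, was silent, at 0 CPM on average in the parents and 0.0233 CPM in Δpp2A. TrF0373W, the gene with the largest change of the middle run (d 3.06), was at 0.752 and 1.51 CPM in the DD1 parents, 1.64 and 1.33 CPM in the DD3 parents and 19.5, 22.4, 9.58 and 24.8 CPM in Δpp2A. Further on, TrG1007C–TrG1009C and TrG1013C–TrG1015C were separated by 3 genes. TrG1009C had 0 counts in all 4 parents and 0.629, 1.40, 1.58 and 1.08 CPM in Δpp2A, at least 15.4-fold higher when the parents are set to 3 counts over the group. TrG1015C was at 25.8 and 106 CPM in the DD1 parents, 62.4 and 83.8 CPM in the DD3 parents and 181, 187, 127 and 164 CPM in Δpp2A. Without the replicate 1 parents 0 of the 3 genes of TrG1013C–TrG1015C kept d of at least 1.

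**Figure D4:**
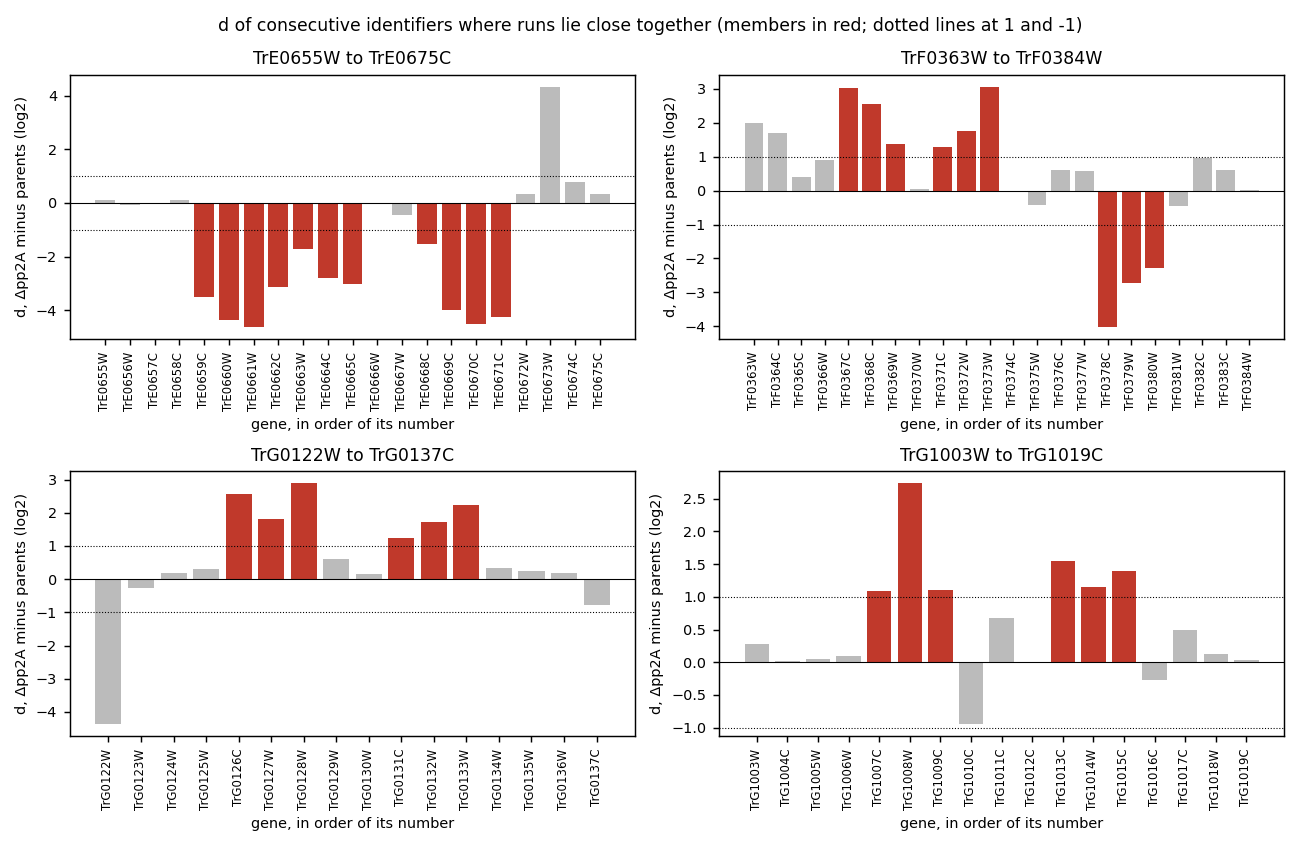
Bars give d of consecutive identifiers in 4 stretches where runs lie at most 10 numbers apart, with members in red, other genes in grey and dotted lines at the limits of 1 and -1. Rising and falling runs stand side by side in the stretch from TrF0363W to TrF0384W.

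The remaining 15 rising runs had d from 1.0 to 3.50. With 3 genes each, TrA1295C–TrA1297W had d of 1.45 to 2.99, TrA1530C–TrA1532W 1.55 to 3.50, TrA1547C–TrA1549W 1.75 to 2.72, TrA1964C–TrA1966W 1.19 to 2.33 and TrA2013C–TrA2015W 1.07 to 1.93. Under letters B to D, d was 1.01 to 2.61 in TrB0174W–TrB0176W, 1.05 to 1.21 in TrB0547C–TrB0549W, 1.16 to 3.46 in TrC0080W–TrC0082W, 1.13 to 2.38 in TrD0153C–TrD0155C and 1.0 to 1.48 in TrD1062C–TrD1064W. It was 1.37 to 2.81 in TrE1200W–TrE1202W, 1.34 to 2.10 in TrF0409C–TrF0411C and 1.04 to 2.08 in TrF0464C–TrF0466W. The 4 genes of TrC1201C–TrC1204C had d of 1.27 to 2.54 and the 5 of TrD0072C–TrD0076C 1.01 to 3.24. Of these 15 runs, TrD0155C was the 1 member in which Δpp2A overlapped with the parents. TrA1530C was at 1.93 and 1.21 CPM in the DD1 parents, 2.16 and 1.33 CPM in the DD3 parents and 50.3, 24.7, 15.7 and 34.3 CPM in Δpp2A, with Δpp2A replicate 1 the highest. TrC0082W was at 3.22 and 6.26 CPM, 3.39 and 5.05 CPM and 62.1, 64.4, 42.7 and 64.7 CPM in these groups. TrD0075C was at 1.93 and 4.64 CPM in the DD1 parents, 3.08 and 1.24 CPM in the DD3 parents and 30.0, 36.8, 33.9 and 28.9 CPM in Δpp2A. The gap to the parents was wide in these genes, which were chosen for their large d. Over all rising members, 28 of 122 were under 1 CPM on average in the parents, where few counts carry d, and 32 reached 100 CPM on average in Δpp2A.

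Whether the members differed in the other deletions was tested with edgeR's quasi-likelihood test over all 8912 genes that passed a filter on low counts, with Benjamini-Hochberg adjustment. All 167 members passed the filter, which a gene could do through the group where it was high. With the filter applied to the compared groups alone, 144, 152 and 145 members passed in the 3 comparisons, and 0 were called in each. Between Δpph5 and its parent 0 members were called (0.0112% of all genes tested), with a smallest adjusted p of 0.561 among members. An unadjusted p under 0.05 was found for 26 members (15.6%) and for 6.43% of all genes. Between Δpph5-2 and its parent 0 were called (0.0112% of all genes), with a smallest adjusted p of 0.371. Here 36 members (21.6%) and 8.64% of all genes had an unadjusted p under 0.05. DESeq2 called 1 of 163 members and 0.292% of all genes in the comparison of Δpph5, and 3 of 163 members and 0.899% of all genes in that of Δpph5-2. These parents also entered the rule.

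Δpph5-2 and Δpph5 were also compared directly, with libraries that the rule did not use, although strain and experiment tag cannot be told apart there. Again 0 members were called by edgeR (0.0224% of all genes), with a smallest adjusted p of 0.157. An unadjusted p under 0.05 was found for 31 members (18.6%) and 23.5% of all genes. DESeq2 called 6 of 163 members (3.68%) and 6.81% of all genes. Without Δpph5 replicate 1, edgeR called 29 members (17.4%), 8 of them higher in Δpph5-2, and 2274 genes in all, or 25.6%. The median log2 fold change of Δpph5-2 over Δpph5 was 0.31 in rising and -0.68 in falling members, against 0.01 in all genes. A member's median standard error was 0.51.

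By size alone, 4 of 122 rising members were at least 1 higher on the log2(CPM + 1) scale in Δpph5 than in its parent (1.93% of all genes), and 5 were at least 1 lower (0.726% of all genes). In Δpph5-2 it was 15 higher (1.82% of all genes) and 5 lower (1.88% of all genes). Of the 45 falling members, 3 were lower and 6 higher in Δpph5, and 19 were lower and 1 higher in Δpph5-2. The replicate 1 parents, which are high in several falling runs, are part of these differences. In edgeR the median log2 fold change of falling members in Δpph5-2 was -0.84. It was 0.08 without parent DD3 replicate 1 and -1.23 without parent DD3 replicate 2. For Δpph5 this median was 0.06, and it was 0.52 without parent DD1 replicate 1 and -0.33 without parent DD1 replicate 2. Δpp2A shared the DD1 parents with Δpph5 and, through the rule, the DD3 parents with Δpph5-2.

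Adjacent genes were also compared in libraries that did not choose them. Over the 7 Δpph5 and Δpph5-2 libraries, the median Pearson correlation of log2(CPM + 1) of adjacent genes was 0.80 in rising runs (60 pairs) and 0.86 in falling runs (32 pairs), and 0.35 among adjacent genes outside runs (6803 pairs), when both genes of a pair had at least 1 CPM on average. A value of 0.8 or more was reached by 31 of the 60 rising and 19 of the 32 falling pairs, or 51.7% and 59.4%, and by 19.6% of the pairs outside runs. The highest of the 7 libraries was the same for both genes in 27 rising pairs (45.0%), 17 falling pairs (53.1%) and 20.5% of other pairs. All pairs share the same 7 libraries, and pairs of a run share genes, so these values describe and do not test. Runs under different letters could also share a profile over these libraries. Mean log2(CPM + 1) in Δpph5 replicates 1, 2 and 3 was 0.57, 4.69 and 4.26 in TrA0420W–TrA0422W. In TrB0705C–TrB0707C it was 4.31, 8.35 and 7.84. Genes that are not adjacent were not compared, so whether the correlations depend on adjacency was not tested. In 12 of the 48 runs all genes had the same highest library among the 7, a count for which no background from outside the runs was computed. The runs differed here too: adjacent genes of TrC0396C–TrC0398W correlated at 0.98 and 0.99 and those of TrG0238C–TrG0241W at 0.89 to 0.99, but those of TrB0813C–TrB0815W at -0.04 and -0.04.

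**Figure D5:**
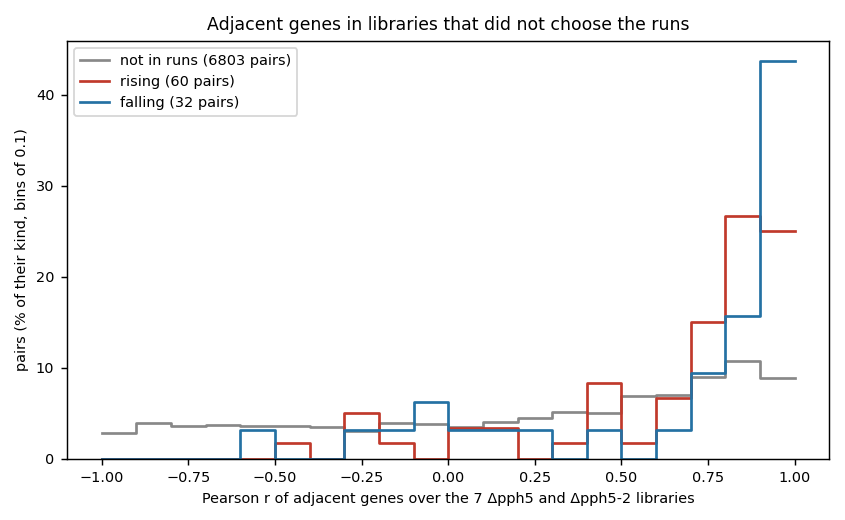
The lines give the share of adjacent gene pairs in each bin of the Pearson correlation over the 7 Δpph5 and Δpph5-2 libraries, for pairs in rising runs, in falling runs and outside runs, with at least 1 CPM on average in both genes. Pairs in runs gather above 0.7, with medians of 0.80 and 0.86, while other pairs are spread over the whole range with a median of 0.35.

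Members were found under all 7 letters, from 1.06% of the identifiers with letter B to 1.99% of those with letter E. Letter G had 6 rising and 0 falling runs, and letter E had 3 of each. Within 100 numbers of the first or last identifier of a letter lay 30 of the 167 members (18.0%) and 12.9% of all identifiers. Adjacent members ended in the same letter, W or C, in 39 of 86 rising and 16 of 33 falling pairs, which is 45.3% and 48.5%, against 41.8% of the pairs outside runs. The median length was 1270.5 bases in rising and 1263 bases in falling members, and 1113 bases over all identifiers.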

How the data were processed

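Total RNA depleted of ribosomal RNA was sequenced with a stranded kit in 15 libraries, per the labels' protocols, and the authors deposited raw read counts per gene with a gene length in bases, a value of another kind. Per the submitters' processing notes HISAT2 2.2.1 was among the tools. Its role, the annotation, the genome build, how reads were counted and whether strand was used in counting are details not given in the sources used here. Of 10879 table rows 3 had other names and held 0 counts and were left out. Library totals of 6026511 to 13572121 set the precision. Levels are CPM, computed from the deposited counts, and d used a pseudocount of 1 CPM. The members and lists were chosen with earlier results of these data known. Tests of the other deletions used edgeR 4.0.16 under R 4.3.3 (quasi-likelihood, TMM, all 15 libraries, genes kept by filterByExpr, adjusted p under 0.05), with DESeq2 1.42.0 as an alternative. The edgeR comparison of Δpph5-2 with Δpph5 and the search for runs were checked on simulated data. The other tests were not.

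Genes were named by rule: the members with the largest and smallest d in the 4 longest runs of each direction (ties by mean size of d), the most abundant member per kilobase of the 4 runs of each direction with the highest mean level, the 2 members per direction closest to the limit, and the genes flanking the longest runs. Other genes were named after their values were seen. Alternatives were other pseudocounts and scalings, other filters, longer runs, the parents of 1 experiment, a replicate block and leaving out libraries.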

Additional observations from a re-analysis of the deposited data

Results flagged for a closer look

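In each member named by rule and each group of 4 libraries, the library farthest from the others was examined with Dixon's criterion. It sets the gap to the next library against the range of the group. Flanking genes and genes named after their values were seen were not examined. Of 56 sets 12 passed. Chance gives about 1 in 20 for independent sets of normally distributed values. These sets hold CPM, whose distribution was not examined, and they share libraries and runs. The Δpp2A values also chose the genes, so the number is a description.

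Replicate 3 of Δpp2A was the library in 6 of the 12. It was the highest of its group at 46.2 CPM of TrB0330C, 413 CPM of TrE0670C, 642 CPM of TrE0671C, 945 CPM of TrB0705C and 0.372 CPM of TrF0061W, which had 0 counts in the other 3 Δpp2A libraries and so passed by construction. It was the lowest at 583 CPM of TrC1010W. Δpp2A replicate 4 was the lowest at 5.15 CPM of TrB0174W.

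Replicate 4 of Δpph5-2 was the highest of its group in 5 genes, all of falling runs with split parents. It was at 111 CPM of TrE0661W, 5.76 CPM of TrF0061W, 2795 CPM of TrB0705C, 8.98 CPM of TrA0420W and 4.36 CPM of TrB0706W. The cause of these values was not tested. Whether the Δpph5 and Δpph5-2 effects differed was tested with an interaction term in edgeR, which called 0 members and 2 of all 8912 genes. An unadjusted p under 0.05 was found for 7 members (4.19%) and for 3.34% of all genes.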

How the results depend on the processing

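Against 122 members of rising and 45 of falling runs, a pseudocount of 0.5 CPM gave 175 and 54, and a pseudocount of 5 CPM 44 and 22. TMM gave 58 and 69, DESeq2 size factors 55 and 75 (42.3% in rising runs), and runs of at least 4 genes 38 and 27. The DD1 parents alone gave 128 and 45, with 104 and 41 of the original members among them. With the DD3 parents alone it was 119 and 56, with 97 and 45 original members. Leaving out 1 library at a time gave 106 to 144 and 36 to 56, among which 89 to 121 and 36 to 45 were original members. Of alternatives chosen after seeing the data, leaving out the replicate 1 libraries of both parents gave 101 and 35. Only 71 and 28 of these were original members. Leaving out the replicate 2 libraries gave 165 and 69, with 106 and 40 original members. Without the replicate 1 parents d turned to 1.19 in TrA0420W and to 0.0953 in TrB0706W, and 6 falling members in all changed sign. The cause was not tested.

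Members called were 0 in all 3 edgeR comparisons and 1, 3 and 6 with DESeq2. These are 0.613%, 1.84% and 3.68% of members, against 0.292%, 0.899% and 6.81% of all genes. Without 1 library of a deletion, members called by edgeR ranged from 0 to 1 for Δpph5 and were 0 for Δpph5-2. The 1 came without Δpph5 replicate 2 and was 0.599% of members, against 0.0674% of all genes. For Δpph5-2 against Δpph5 they ranged from 0 to 29. The 29 came without Δpph5 replicate 1 and were 17.4% of members, against 25.6% of all genes. With a replicate block 0 members were called in each. In these 3 comparisons the correlations of same-numbered libraries ran from -0.725 to 0.363, so the numbers were not taken to pair their samples. Pairing between the parents of DD1 and DD3, which split alike by number in several falling runs, was not tested. Among the values of d for single genes under these settings, 435 kept their direction and moved by less than the spread, 11 moved further and 2 reversed. Low counts limit the 28 rising members under 1 CPM in the parents.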
